A study of Homo sapiens with 36 samples.

Results

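MYC and 39 genes whose products build ribosomes in the nucleolus were followed through stearoyl-CoA desaturase (SCD) inhibition and SCD knockdown in the human melanoma cell lines 501mel and IGR37. The 40 genes were taken by symbol, and all 40 were present in both normalised expression tables, which hold 13364 and 13066 genes with 12896 in common. The 40 comprised MYC itself, 6 genes of RNA polymerase I transcription, 4 of the box C/D small nucleolar ribonucleoprotein (snoRNP), 3 of the box H/ACA snoRNP, 11 of the small subunit processome, 13 of large (60S) subunit maturation and 2 nucleolar chaperones. The study covered 36 libraries in 12 groups of 3, and all cells were collected after 48 h. In each line the groups were vehicle (DMSO), the SCD inhibitor A939372 at 1 µM (SCDi), a control siRNA (siCTR) with an SCD siRNA (siSCD_2), and a further control siRNA group (siCTR_1) with another SCD siRNA (siSCD_1), all siRNAs at 20 nM. DMSO, SCDi, siCTR and siSCD_2 share the first table and siCTR_1 and siSCD_1 share the second, and each table was normalised on its own. Both control siRNAs carry the same treatment label. All groups are established lines in medium with 10% serum at a single time point, and because the labels do not tell whether replicate libraries were grown as separate cultures, the p-values below cover library-to-library spread that may be technical.

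SCD is the desaturase that turns saturated into monounsaturated fatty acids, which cells need for membranes and storage lipids. MYC is a transcription factor that binds DNA as a dimer with MAX, most often at the E-box CACGTG, and it is known for raising the output of ribosomes by acting on RNA polymerase I, ribosomal protein genes and the assembly factors. RNA polymerase I makes the long precursor ribosomal RNA, snoRNPs modify it, the small subunit processome folds and cuts its 5′ part, and a separate set of factors matures the 60S subunit. In melanoma, as in other tumours, growth depends on this supply of ribosomes.

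Libraries held between 4078450 and 6685898 gene reads in the first table and between 2402788 and 7483010 in the second, and spike-in reads took 2.43% to 7.21% and 3.76% to 5.71% of reads. Levels below are the deposited log2 normalised expression, and changes are differences of group means on that scale; a level is relative to all reads of its library, and in bulk libraries fewer cells and less RNA per cell cannot be told apart. All 7 pigment cell markers were listed in both tables, none of the 4 epithelial markers was, LUM was the only fibroblast marker with a mean above log2 2, and CD68, at 4.75 and 4.08, was the only blood or endothelial marker above it. SCD itself, the target, was at 6.94 with siSCD_1 against 9.79 with siCTR_1 in 501mel and at 7.43 against 10.09 in IGR37. With siSCD_2 it was at 5.03 against 9.36 in 501mel and at 5.98 against 10.12 in IGR37, so both siRNAs lowered their target in each line (adjusted p of 1.03e-12 or below). SCDi, which acts on the enzyme and not on its mRNA, left SCD mRNA 0.29 higher in 501mel (adjusted p = 0.573) and 0.63 higher in IGR37 (adjusted p = 0.00215).

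Most of the 40 genes were lower with the inhibitor in IGR37, and none passed with the same inhibitor in 501mel. A gene counted as risen or fallen at an adjusted p under 0.05 from limma, with the adjustment over all genes of its table. With SCDi in 501mel, 0 of the 40 rose and 0 fell, where 0.292% of all genes tested passed, 0.0599% lower and 0.232% higher; at an unadjusted p under 0.05, 2 of the 40 were higher and 2 lower. With SCDi in IGR37, 27 of the 40 fell and 1 rose, where 44.1% of all genes passed, 23.1% lower and 20.9% higher. The genes of ribosome biogenesis are highly expressed, and among the 7268 genes with a mean level at least that of the lowest of the 40, POLR1A, 34.5% fell against 67.5% of the 40.

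Both SCD siRNAs lowered more of the 40 than they raised in each line. With siSCD_1 in 501mel, 14 fell and 4 rose, where 43.0% of all genes passed, 22.0% lower and 20.9% higher. Of the 8147 genes at least as high as the lowest of the 40, 31.0% fell, so the 35% of the 40 that fell is close to this background. With siSCD_1 in IGR37, 17 fell and 2 rose, where 36.1% of all genes passed, 19.4% lower and 16.7% higher, and 26.5% of the equally high genes fell against 42.5% of the 40. With siSCD_2 in 501mel, 20 fell and 2 rose, where 37.9% of all genes passed, 19.5% lower and 18.3% higher, and 25.7% of the equally high genes fell against 50% of the 40. With siSCD_2 in IGR37, 10 fell and 5 rose, where 45.9% of all genes passed, 22.7% lower and 23.2% higher. Of the equally high genes 27.0% fell, close to the 25% of the 40.

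The median change over the 40 genes was 0.04 with SCDi in 501mel and -0.53 with SCDi in IGR37. It was -0.16 and -0.25 with siSCD_1 and -0.35 and -0.12 with siSCD_2, in 501mel and IGR37 respectively. Taken library by library against the mean of its controls, the median of the 40 was -0.49, -0.59 and -0.48 in the SCDi libraries of IGR37, where the DMSO libraries lay between -0.03 and 0.01. In 501mel the SCDi libraries gave 0.01, 0.03 and -0.02, so the 3 treated libraries of each line lay close together. Scaling on the spike-ins moved the median of all genes by -0.63 with siSCD_2 in 501mel and by -0.47 in IGR37, and the 40 then split as 38 fallen and 0 risen in 501mel and as 22 fallen and 1 risen in IGR37. In these 2 comparisons the spike-in share was 5.16% to 6.96% in treated libraries against 3.81% to 5.08% in controls of 501mel, and 5.05% to 7.21% against 4.35% to 4.83% in IGR37; its part in the result was not tested. With SCDi in 501mel the same scaling moved the median of all genes by 0.37 and still gave no call among the 40. Directions given below for siSCD_2 are relative to the median of all genes.

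**Figure D1:**
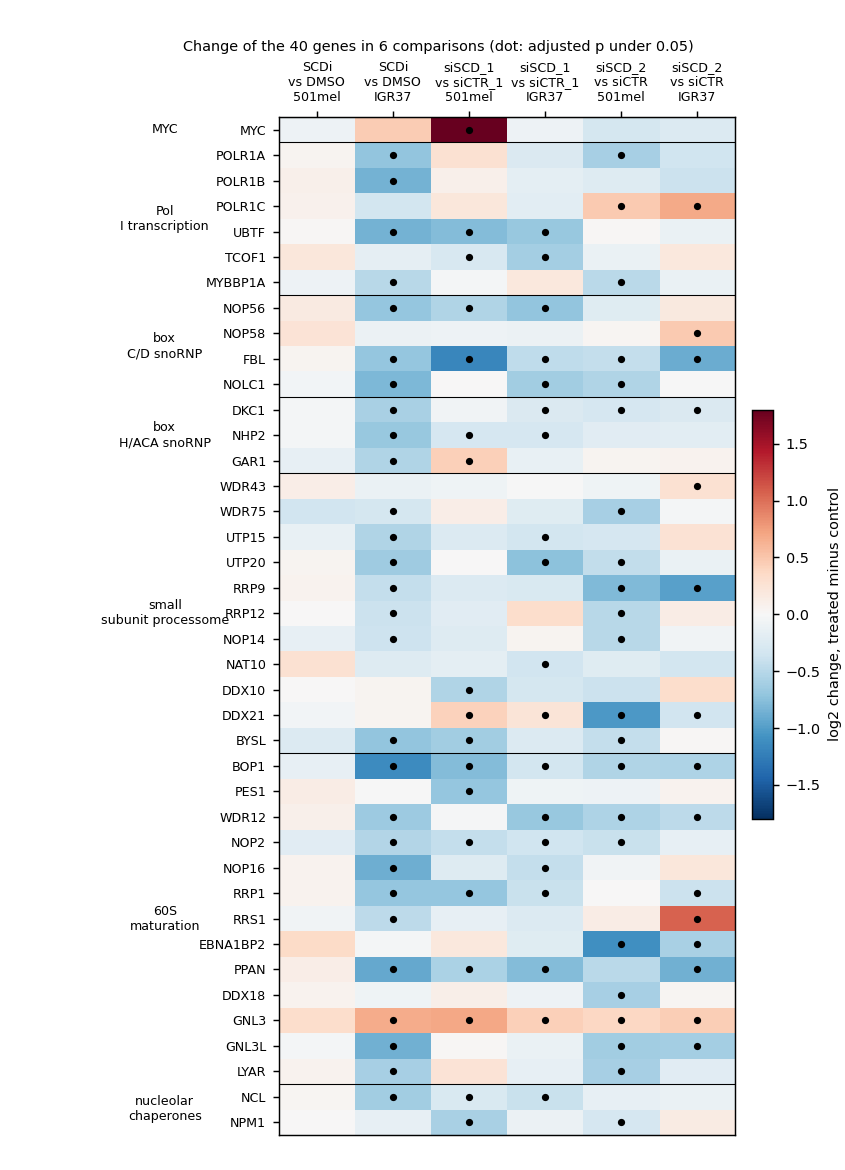
Log2 change of each of the 40 genes, arranged by role, in the 6 comparisons of treated with matched control libraries (n = 3 each); colour gives the change and a dot marks an adjusted p under 0.05. The column of SCDi in 501mel holds no dot, and that of SCDi in IGR37 holds 27 falls and the rise of GNL3.

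**Figure D2:**
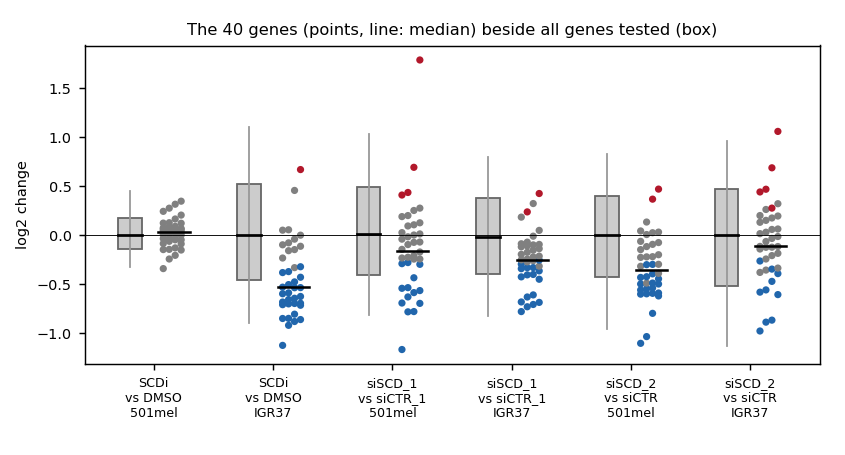
Log2 change of the 40 genes (points, with the median as a line; red rose, blue fell, grey did not pass) beside all genes tested (box) in the 6 comparisons. On the deposited scaling shown here the median of the 40 is -0.53 with SCDi in IGR37 and -0.35 with siSCD_2 in 501mel; on spike-in scaling it is -0.62 and -0.98.

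The E-box to which MYC and MAX bind was looked for just upstream of the start sites, since it is the sequence through which MYC could meet these genes directly. The 250 bases before the start were found in the RefSeq promoter table (GRCh38.p14) for 32 of the 40 genes. CACGTG, which reads the same on both strands, was present in 3 of these 32 (9.4%), in 9.1% of the 10066 tested genes with a promoter entry and in 6.5% of all 27305 entries. The 3 are EBNA1BP2, a 60S assembly factor, at chr1:43172571-43172820 on the minus strand, UTP20, a large scaffold of the small subunit processome, at chr12:101279855-101280104 on the plus strand, and NAT10, which acetylates cytidines of 18S ribosomal RNA, at chr11:34105379-34105628 on the plus strand. They are shown 5′ to 3′ with the E-box in capitals:
EBNA1BP2: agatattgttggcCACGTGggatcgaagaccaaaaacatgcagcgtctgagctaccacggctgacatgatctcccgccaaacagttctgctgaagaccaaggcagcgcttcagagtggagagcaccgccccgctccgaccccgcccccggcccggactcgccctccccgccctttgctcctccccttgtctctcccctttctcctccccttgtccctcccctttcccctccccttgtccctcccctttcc
UTP20: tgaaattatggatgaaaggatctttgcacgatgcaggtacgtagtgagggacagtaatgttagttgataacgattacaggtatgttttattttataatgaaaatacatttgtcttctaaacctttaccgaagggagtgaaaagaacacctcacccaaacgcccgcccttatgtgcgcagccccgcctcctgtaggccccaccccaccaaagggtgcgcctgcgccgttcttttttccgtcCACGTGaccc
NAT10: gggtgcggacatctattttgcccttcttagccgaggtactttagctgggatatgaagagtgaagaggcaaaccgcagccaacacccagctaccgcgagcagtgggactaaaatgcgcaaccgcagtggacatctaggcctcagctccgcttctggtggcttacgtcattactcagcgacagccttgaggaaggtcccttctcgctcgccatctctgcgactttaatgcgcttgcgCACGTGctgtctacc
Counted back from the start site, the E-box begins at base -237 in EBNA1BP2, at -10 in UTP20 and at -15 in NAT10. The GENCODE 29 start of NAT10, at 34105602, lies inside the printed stretch and before its E-box. The 3 genes did not move together: EBNA1BP2 fell with siSCD_2 in both lines, UTP20 fell with SCDi and siSCD_1 in IGR37 and with siSCD_2 in 501mel, and NAT10 fell in 1 comparison, siSCD_1 in IGR37, by 0.34.

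MYC mRNA rose in 1 of the 6 comparisons, siSCD_1 in 501mel, and it fell in none. Its level there was 3.14, 3.90 and 3.51 with siCTR_1 and 5.47, 5.15 and 5.30 with siSCD_1. Every siSCD_1 library lay above every control library, and the groups held 419 and 183 recovered MYC reads in all. The change was 1.79 ± 0.18 (SE, n = 3), a 3.46-fold rise (adjusted p = 1.37e-06). In IGR37 the same siRNA gave 4.53, 4.10 and 4.53 against 4.61, 4.44 and 4.37, groups that overlap, with a change of -0.09 (adjusted p = 0.753). The difference between the lines was itself past the threshold, at -1.88 ± 0.26 (IGR37 minus 501mel, adjusted p = 0.000234).

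The second siRNA did not raise MYC in 501mel. With siSCD_2 its level was 3.40, 3.89 and 3.38 against 4.03, 3.60 and 4.0 with siCTR, a change of -0.32 (adjusted p = 0.257) with overlapping groups. In IGR37 it was 4.52, 5.21 and 4.57 against 5.33, 4.84 and 4.85, a change of -0.24 (adjusted p = 0.370). On spike-in scaling the 2 changes were -0.94 (adjusted p = 0.0052) and -0.72 (adjusted p = 0.0351). The difference between the lines with siSCD_2 was 0.07 (adjusted p = 0.891).

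The inhibitor left MYC at 4.73, 3.88 and 4.63 in 501mel, where DMSO gave 4.43, 4.52 and 4.56, a change of -0.09 ± 0.21 (adjusted p = 0.954). In IGR37 the SCDi libraries, at 5.18, 5.39 and 5.07, all lay above the DMSO libraries, at 4.86, 4.92 and 4.50. The change of 0.46 did not pass in the fit over all 24 libraries of the table (adjusted p = 0.084) and passed when only the groups compared were fitted (adjusted p = 0.0353). MYC was thus not lower in the comparison in which 27 of the other 39 genes fell.

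**Figure D3:**
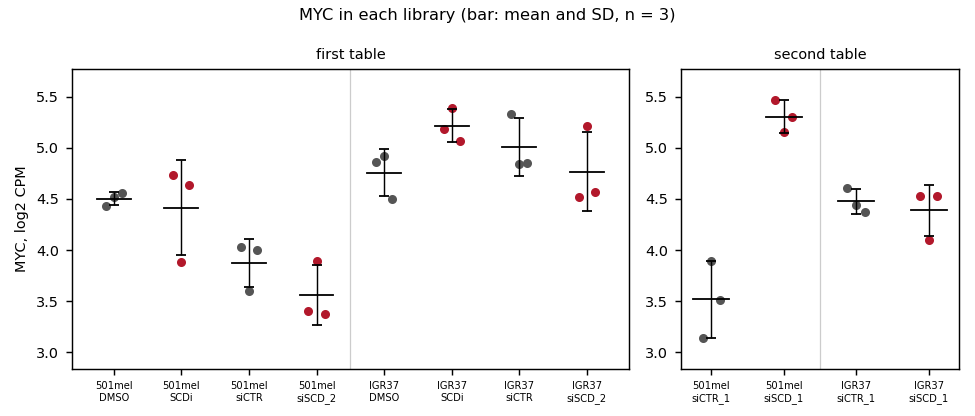
MYC log2 normalised expression in every library of the 12 groups; points are libraries, and bars give the mean and SD (n = 3), with control groups in grey and treated groups in red. The siSCD_1 libraries of 501mel, at 5.15 to 5.47, stand clear of their controls at 3.14 to 3.90.

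With SCDi in IGR37, falls were found in every role but that of MYC itself: 4 of the 6 RNA polymerase I genes, 3 of 4 box C/D, 3 of 3 box H/ACA, 7 of 11 small subunit processome, 9 of 13 60S maturation genes and 1 of 2 chaperones fell. The 1 rise was GNL3. The largest fall was that of BOP1, which with PES1 and WDR12 forms the PeBoW complex of 60S maturation. BOP1 was at 7.51, 7.22 and 7.54 with DMSO and at 6.14, 6.29 and 6.46 with SCDi. All 3 treated libraries lay below all 3 controls, and the change was -1.13 ± 0.13, 0.458 of the control level (adjusted p = 1.8e-07). WDR12 fell as well, by 0.66, while PES1 changed by 0.00 and did not pass.

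PPAN, a factor of 60S maturation, was at 4.97, 4.91 and 4.71 with DMSO and at 3.98, 3.58 and 4.26 with SCDi. It fell by 0.92 ± 0.24 (adjusted p = 0.00278), with no overlap. NOP16, another nucleolar 60S factor, was at 6.88, 6.93 and 7.0 against 6.21, 5.94 and 6.01. Its groups did not overlap either, and the fall was 0.88 ± 0.09 (adjusted p = 1.72e-08). The other 60S genes that fell were GNL3L (-0.86), RRP1 (-0.70), LYAR (-0.60), NOP2 (-0.53) and RRS1 (-0.48).

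Among the genes of RNA polymerase I, its catalytic subunits POLR1A and POLR1B fell by 0.72 and 0.85 and UBTF, the factor that keeps ribosomal DNA open, fell by 0.85. MYBBP1A fell by 0.51. POLR1C, a subunit shared with RNA polymerase III, was at -0.33 and TCOF1, the treacle scaffold, at -0.16, and neither passed. In the box C/D snoRNP, which 2′-O-methylates ribosomal RNA, the methyltransferase FBL fell by 0.70, NOP56 by 0.70 and the assembly chaperone NOLC1 by 0.81, while NOP58 was at -0.10 and did not pass. All 3 box H/ACA genes fell: NHP2 by 0.68, the pseudouridine synthase DKC1 by 0.59 and GAR1 by 0.54. Of the processome genes, BYSL (-0.71), UTP20 (-0.64) and UTP15 (-0.54) fell most, followed by RRP9, RRP12, NOP14 and WDR75 at -0.43 to -0.32; the calls for RRP9, RRP12 and WDR75 were each lost without either of 2 libraries. The helicases DDX10, DDX18 and DDX21, with changes of 0.05, -0.08 and 0.05, did not pass. The chaperone NCL (nucleolin) fell by 0.63, and NPM1 (nucleophosmin), which has 45 named pseudogenes in GENCODE 29 that could share its reads, was at -0.15 and did not pass.

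Markers of cell type moved in the same libraries. Of the 7 pigment cell markers 6 fell with SCDi in IGR37 (median -0.50), and their summed level (log2 of the sum of linear values) was 11.92 to 12.01 with SCDi against 12.43 to 12.47 with DMSO. Of the 4 fibroblast markers listed 3 fell, with a summed level of 1.84 to 2.46 against 3.94 to 4.08. LUM fell by 1.91. COL1A1 and DCN fell too, at means of -4.43 and -3.61 with SCDi against -2.12 and -0.55 with DMSO. Both lay near the floor, at 0 or 1 read in each SCDi library, and overlapped with DMSO. CD68, which is also found in lysosomes of other cells, rose by 2.16, and the summed level of the 3 blood and endothelial markers listed was 5.56 to 5.96 against 3.48 to 4.14. Pigment cell markers also fell with the siRNAs. With siSCD_1, 7 of 7 fell in 501mel (median -0.56) and 3 in IGR37 (median -0.12). With siSCD_2, 5 fell and 1 rose in 501mel (median -0.35), and 6 fell and 1 rose in IGR37 (median -0.82). None passed with SCDi in 501mel. CD68 fell with siSCD_2, by 1.25 in 501mel and 1.72 in IGR37, and did not pass with siSCD_1. The other fibroblast, blood and endothelial markers that passed with the siRNAs moved both ways. With siSCD_1, LUM rose by 1.25 and VWF by 2.68 in 501mel, and PDGFRA fell by 3.12 in IGR37. With siSCD_2 in IGR37, DCN rose by 2.78 and COL1A1 fell by 2.05. Of these genes only LUM had a mean above log2 2. The part of these shifts in the falls of the 40 was not tested.

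The response to the inhibitor differed between the lines for 19 of the 40 genes, all with the lower value in IGR37, where 27.6% of all genes tested passed, 15.3% lower and 12.3% higher in IGR37. Of the 7268 equally high genes 39.5% passed, 23.9% lower and 15.7% higher in IGR37, against 47.5% of the 40. The largest differences (IGR37 minus 501mel) were those of PPAN at -1.04 ± 0.34 (adjusted p = 0.0228), BOP1 at -0.98 ± 0.19 (adjusted p = 0.000345) and NOP16 at -0.94 ± 0.13 (adjusted p = 5.21e-06). In 501mel these 3 changed by 0.12, -0.15 and 0.06, and none passed. BOP1 there was at 6.38, 6.69 and 6.52 with SCDi and 6.66, 6.88 and 6.47 with DMSO, so the groups overlapped. The call for PPAN was lost without 501mel SCDi replicate 2, IGR37 DMSO replicate 1 or IGR37 SCDi replicate 2 (adjusted p = 0.0514 to 0.0765). These differences reuse the libraries of the within-line comparisons and are no second set of measurements. On spike-in scaling, which moved the median of all genes in this difference by -0.46, 27 of the 40 passed, all lower in IGR37.

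**Figure D4:**
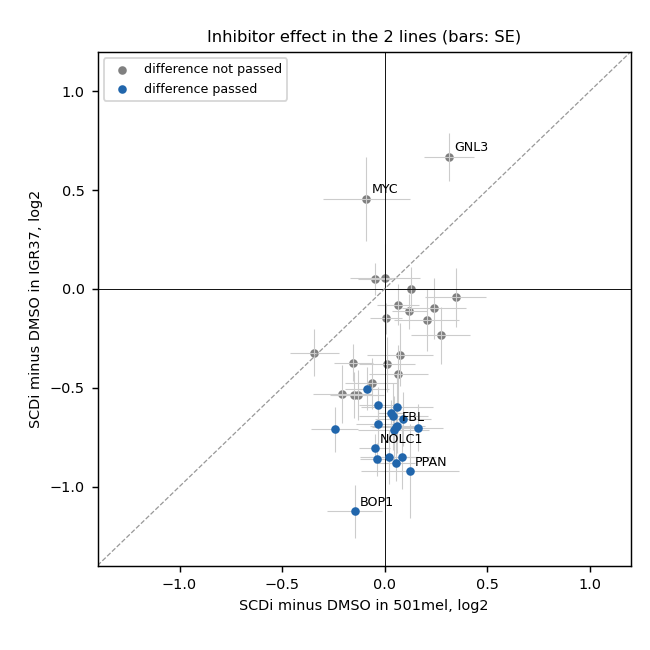
Log2 change of the 40 genes with SCDi in 501mel (horizontal) and IGR37 (vertical), with standard errors as bars and the line of equal change dashed; blue marks the 19 genes whose difference between the lines passed. All 40 changes lie between -0.34 and 0.35 in 501mel, while in IGR37 BOP1 reaches -1.13 and GNL3 0.67.

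With siSCD_1 in 501mel, MYC rose together with 3 of the other genes while 14 fell. The falls covered 2 RNA polymerase I genes, 2 box C/D, 1 box H/ACA, 2 processome and 5 60S genes and both chaperones. FBL was at 10.06, 9.74 and 9.81 with siCTR_1 and at 8.78, 8.67 and 8.66 with siSCD_1. No libraries overlapped, and the fall was 1.17 ± 0.15, to 0.445 of the control level (adjusted p = 1.09e-05). BOP1, at 7.30, 7.13 and 7.17 against 6.45, 6.47 and 6.33, fell by 0.78 ± 0.08 (adjusted p = 1.42e-06). UBTF, at 7.51, 7.31 and 7.45 against 6.80, 6.66 and 6.47, fell by 0.78 ± 0.10 (adjusted p = 1.23e-05). All 3 genes had every siSCD_1 library below every control. The other falls were those of PES1 (-0.70), RRP1 (-0.69), BYSL (-0.63), NPM1 (-0.59), PPAN (-0.57), DDX10 (-0.54), NOP56 (-0.54), NOP2 (-0.44), NHP2 (-0.30), TCOF1 (-0.29) and NCL (-0.28).

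The 3 rises beside MYC were those of GNL3 (nucleostemin), GAR1 and DDX21. GNL3 was at 4.87, 4.80 and 4.83 with siCTR_1 and at 5.49, 5.64 and 5.45 with siSCD_1, a rise of 0.69 ± 0.11 (adjusted p = 6.66e-05). GAR1, at 7.47, 7.71 and 7.73 against 8.12, 8.01 and 8.09, rose by 0.44 ± 0.08 (adjusted p = 0.000602). DDX21, an RNA helicase of early ribosomal RNA processing, was at 9.53, 9.67 and 9.67 against 9.92, 10.05 and 10.13 and rose by 0.41 ± 0.07 (adjusted p = 0.000247). In each, the lowest treated library was above the highest control. The siSCD_1 libraries of 501mel were shallower than their controls, at 2897808 to 3285909 gene reads against 4146308 to 5986834, and the part of depth in these results was not tested. Quantile normalisation split the 40 as 12 fallen and 7 risen here, and their median was then -0.02. The call for PPAN was lost without siCTR_1 replicate 1 or siSCD_1 replicate 3, that for NOP2 without siSCD_1 replicate 1, and those for TCOF1 (adjusted p = 0.0499) and NHP2 without any of 4 libraries.

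With siSCD_1 in IGR37, PPAN, UTP20 and NOP56 fell most. PPAN was at 4.60, 4.44 and 4.41 with siCTR_1 and at 3.66, 3.84 and 3.60 with siSCD_1, a fall of 0.78 ± 0.16 (adjusted p = 0.00135). UTP20, at 4.50, 4.47 and 4.23 against 3.81, 3.38 and 3.82, fell by 0.73 ± 0.15 (adjusted p = 0.00125). NOP56, the core box C/D protein, was at 8.23, 8.09 and 8.16 against 7.61, 7.33 and 7.42 and fell by 0.71 ± 0.09 (adjusted p = 1.3e-05). None of these groups overlapped. UBTF (-0.69), WDR12 (-0.68), NOLC1 (-0.63) and TCOF1 (-0.61) followed, and 10 more genes fell by 0.26 to 0.45, of which NHP2, UTP15, NAT10, NOP2 and RRP1, beside FBL, each lost the call without several of the 6 libraries in turn. GNL3, at 5.86, 5.56 and 5.66 against 6.08, 6.26 and 6.01, rose by 0.43 ± 0.11 (adjusted p = 0.00485). DDX21, at 8.30, 8.33 and 8.21 against 8.55, 8.44 and 8.57, rose by 0.24 ± 0.07 (adjusted p = 0.0166), a call lost without siCTR_1 replicate 3 or siSCD_1 replicate 1 or 3 (adjusted p = 0.0501 to 0.0758) and on spike-in scaling.

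FBL fell by 0.45 in the same comparison (adjusted p = 0.0249), but its libraries did not lie together. The siSCD_1 libraries gave 9.02, 9.73 and 8.95 against 9.70, 9.68 and 9.67 with siCTR_1. The library at 9.73, replicate 2, was the shallowest of the study, with 2402788 gene reads, and lay above all controls. Without it the change was -0.70; without any 1 of the other 5 libraries it did not pass (adjusted p = 0.0589 to 0.117). Leaving out siCTR_1 replicate 3 lowered the calls among the 40 in this comparison from 19 to 12.

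The response to siSCD_1 differed between the lines for 10 of the 40, where 20.3% of all genes tested passed, 10.3% lower and 10% higher in IGR37. These shares cover genes of all levels, low ones included. Of the 10, 6 were lower in IGR37 and 4 higher. Beside MYC, UTP20 differed by -0.73 ± 0.21 (adjusted p = 0.024) and WDR12 by -0.67 ± 0.14 (adjusted p = 0.00409), where the changes in 501mel were 0.00 and -0.02. FBL, PES1 and NPM1 had the higher value in IGR37, by 0.72 ± 0.21 (adjusted p = 0.0237; 0.47 without IGR37 siSCD_1 replicate 2), 0.63 ± 0.18 (adjusted p = 0.0235) and 0.49 ± 0.09 (adjusted p = 0.00189). Of the 12 libraries, leaving out any 1 of 6 ended the call for UTP20, any 1 of 4 that for PES1 and any 1 of 3 that for FBL (adjusted p = 0.0502 to 0.0669). Without 501mel siCTR_1 replicate 1, or without 501mel siSCD_1 replicate 3, 6 of the 40 passed, and on spike-in scaling 5 did, 4 of them higher in IGR37; quantile normalisation gave 11 lower and 2 higher, and centring on the median, which moved all genes by 0.11, gave 5 lower and 6 higher.

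With siSCD_2 in 501mel, 7 of the 11 small subunit processome genes and 7 of the 13 60S genes fell. EBNA1BP2 was at 6.90, 7.07 and 7.13 with siCTR and at 5.84, 5.80 and 6.16 with siSCD_2, a fall of 1.10 ± 0.15 to 0.465 of the control (adjusted p = 1.84e-06). DDX21, at 9.47, 9.57 and 9.52 against 8.41, 8.51 and 8.52, fell by 1.04 ± 0.08 to 0.488 of the control (adjusted p = 3.36e-10). RRP9, the U3 snoRNP protein, was at 4.37, 4.95 and 4.84 against 3.91, 4.12 and 3.73 and fell by 0.80 ± 0.14 (adjusted p = 9.37e-05). In all 3 the treated libraries lay below the controls. GNL3L, DDX18, WDR75, LYAR, POLR1A, WDR12, BOP1, NOLC1, RRP12 and NOP14 fell by 0.50 to 0.62, and MYBBP1A, UTP20, BYSL, FBL, NOP2, NPM1 and DKC1 by 0.30 to 0.49. Without siSCD_2 replicate 1 LYAR was at -0.39 (adjusted p = 0.0918), without siCTR replicate 1 POLR1A was at -0.41 (adjusted p = 0.0862), and the calls for RRP12, DKC1, UTP20 and NOP2 were each lost without at least 1 library.

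The 2 rises with siSCD_2 in 501mel were small. GNL3, at 4.88, 4.83 and 5.06 against 5.21, 5.44 and 5.23, rose by 0.37 ± 0.12 (adjusted p = 0.0192). POLR1C, at 5.84, 6.05 and 6.23 against 6.63, 6.60 and 6.28, rose by 0.47 ± 0.16 (adjusted p = 0.0225). Both had every treated library above every control, but on spike-in scaling they stood at -0.26 and -0.16, the opposite sign, and neither passed. Leaving out siCTR replicate 1 or siSCD_2 replicate 2 also ended each call, as did siCTR replicate 2 for GNL3 and siSCD_2 replicate 1 for POLR1C.

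With siSCD_2 in IGR37, 6 of the 10 falls and 2 of the 5 rises were in 60S genes. RRP9 was at 5.77, 6.20 and 6.08 with siCTR and at 5.21, 4.98 and 4.93 with siSCD_2, a fall of 0.98 ± 0.14 (adjusted p = 4.83e-06). FBL, at 9.60, 9.72 and 9.74 against 8.91, 9.05 and 8.44, fell by 0.89 ± 0.12 (adjusted p = 1.09e-06). Both had no overlap between the groups. PPAN, at 4.62, 4.86 and 4.84 against 3.86, 4.54 and 3.31, fell by 0.87 ± 0.24 (adjusted p = 0.00436); its treated libraries were far apart, and without the lowest, the siSCD_2 library that carries no matching replicate number, the change was -0.57 (adjusted p = 0.0502). GNL3L (-0.61), EBNA1BP2 (-0.58), BOP1 (-0.56), WDR12 (-0.47), RRP1 (-0.39), DDX21 (-0.35) and DKC1 (-0.26) made up the other falls. Without the same unnumbered library DKC1 was at -0.13 (adjusted p = 0.246), and its call was also lost without siCTR replicate 2 or 3 or siSCD_2 replicate 1; that for RRP1 was lost without siCTR replicate 3, siSCD_2 replicate 1 or the unnumbered library. When only the groups compared were fitted, 8 of the 40 passed here in place of 15.

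RRS1, which helps bring the 5S particle into the 60S precursor, rose most with siSCD_2 in IGR37. It was at 5.99, 6.09 and 5.97 with siCTR and at 7.22, 6.58 and 7.43 with siSCD_2. All treated libraries lay above all controls, and the rise was 1.06 ± 0.13, 2.09-fold (adjusted p = 3.1e-07). The DMSO libraries of IGR37, which share the table, were at 6.69, 6.77 and 6.94, above the siCTR libraries and within the range of the siSCD_2 libraries; siCTR was lower than DMSO by 0.78 (adjusted p = 0.000144). With SCDi, at 6.27, 6.29 and 6.41, RRS1 fell by 0.48 ± 0.13 (adjusted p = 0.00405), so it passed in opposite directions in the 2 treatments of the line.

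POLR1C and NOP58 also rose with siSCD_2 in IGR37. POLR1C, at 4.60, 4.86 and 4.96 against 5.76, 5.05 and 5.67, rose by 0.69 ± 0.16 (adjusted p = 0.00102) with no overlap. This rise is on the deposited scaling. Spike-in scaling moved the median of all genes in this comparison by -0.47, and 1 gene of the set then rose in place of 5. The gene XPO5, on the other strand, reaches within 500 bases of the 3′ end of POLR1C, and it too rose here, by 0.38 (adjusted p = 0.00105). In 501mel with siSCD_2, where POLR1C rose as well, XPO5 was at -0.20 and did not pass. NOP58, the partner of NOP56 in the box C/D core, was at 6.19, 6.08 and 5.97 against 6.32, 6.16 and 7.16 and rose by 0.47 ± 0.16 (adjusted p = 0.0157). The groups overlapped, and the rise rested on the library at 7.16, the siSCD_2 library without a matching replicate number: without it the change was 0.16 (adjusted p = 0.237), without siCTR replicate 3 the adjusted p was 0.0632, and on spike-in scaling it was -0.01. WDR43 rose by 0.28, a change smaller than the shift on spike-in scaling, where its sign was the opposite. Its call was lost without siCTR replicate 2 or siSCD_2 replicate 1. Between siCTR and DMSO in IGR37, WDR43 stood at -0.28, so the rise was measured from a control below DMSO. GNL3, described below with its other comparisons, rose by 0.44.

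The response to siSCD_2 differed between the lines for 12 of the 40, where 21.1% of all genes tested passed, 9.47% lower and 11.6% higher in IGR37. These shares cover genes of all levels, and that of equally high genes is not given here. In 11 of the 12 the value was higher in IGR37, and 7 of these 11 were processome genes. Several of the 11 were also lower with siCTR than with DMSO in IGR37. WDR43, UTP15 and NOP14 stood at -0.28, -0.42 and -0.37 there, each call lost without at least 1 library. RRS1, RRP12 and DDX21 were lower too, as given below for the controls. The part of the low control in these differences was not tested. RRS1 differed by 0.93 ± 0.18 (adjusted p = 0.000715), DDX10 by 0.71 ± 0.24 (adjusted p = 0.0368) and DDX21 by 0.69 ± 0.12 (adjusted p = 0.000133). FBL was the gene with the lower value in IGR37, at -0.46 ± 0.17 (adjusted p = 0.0496). The calls for FBL and DDX10 were each lost without any 1 of 8 of the 12 libraries (adjusted p = 0.0515 to 0.158). With only the groups compared in the fit 5 of the 40 passed, and with spike-in scaling 1 did.

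GNL3 was the 1 gene of the 40 that rose in 5 of the 6 comparisons, and its treated libraries lay above all matched controls in all 6. With SCDi in IGR37 it was at 6.54, 6.31 and 6.25 against 5.68, 5.71 and 5.70, a rise of 0.67 ± 0.12, 1.59-fold (adjusted p = 7.2e-05). With SCDi in 501mel it was at 5.69, 5.37 and 5.57 against 5.32, 5.0 and 5.36, and the change of 0.32 ± 0.12 did not pass (adjusted p = 0.357). With siSCD_2 in IGR37, at 6.20, 5.79 and 6.06 against 5.64, 5.64 and 5.44, it rose by 0.44 ± 0.12 (adjusted p = 0.00449), though on spike-in scaling it stood at -0.03. GNL3 encodes nucleostemin, a nucleolar GTPase of 60S maturation and cell proliferation (ENSG00000163938.16, chromosome 3, 52681156 to 52694492, plus strand, hg38). GLT8D1, whose 3′ end meets that of GNL3 on the other strand, passed in none of the 6 comparisons, with changes between -0.28 and 0.31. GNL3L, the paralogue of GNL3, rose in no comparison and fell in 3.

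FBL and BOP1 were the genes that fell most often, each in 5 of the 6 comparisons, all but SCDi in 501mel. FBL (ENSG00000105202.8, chromosome 19, 39834458 to 39846414, minus strand) was at 9.38, 9.32 and 9.55 with DMSO and at 8.57, 8.71 and 8.87 with SCDi in IGR37. With siSCD_2 in 501mel it was at 8.61, 8.40 and 8.45 against 8.92, 8.78 and 9.04, so the groups did not overlap there either. BOP1 fell by 0.33 with siSCD_1 in IGR37, at 7.12, 7.14 and 6.94 against 7.39, 7.34 and 7.47. It was at 5.95, 5.75 and 5.86 against 6.56, 6.23 and 6.43 with siSCD_2 in 501mel, and at 6.77, 7.11 and 6.53 against 7.19, 7.46 and 7.44 in IGR37. Every treated library of BOP1 lay below every matched control in these 3 comparisons.

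DDX21 passed in opposite directions with the 2 siRNAs. It rose with siSCD_1 in both lines and fell with siSCD_2 in both, in IGR37 from 7.77, 7.83 and 7.77 to 7.60, 7.20 and 7.54, by 0.35 ± 0.08 (adjusted p = 0.00132). The 2 siRNAs were measured in separately normalised tables against separate controls, and the difference between them was not tested. GAR1 rose with siSCD_1 in 501mel and fell with SCDi in IGR37, where it was at 6.56, 6.61 and 6.26 with DMSO and at 6.08, 5.75 and 5.99 with SCDi, by 0.54 ± 0.12 (adjusted p = 0.000518). Of the other genes, 5 fell in a single comparison, 11 in 2, 9 in 3 and 5 in 4, in each case with no rise in any of the 6. For these patterns, and for those of GNL3, FBL and BOP1, the share of all genes was not computed. In each comparison but SCDi in 501mel, 36.1% to 45.9% of all genes passed, so repeated calls are common.

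**Figure D5:**
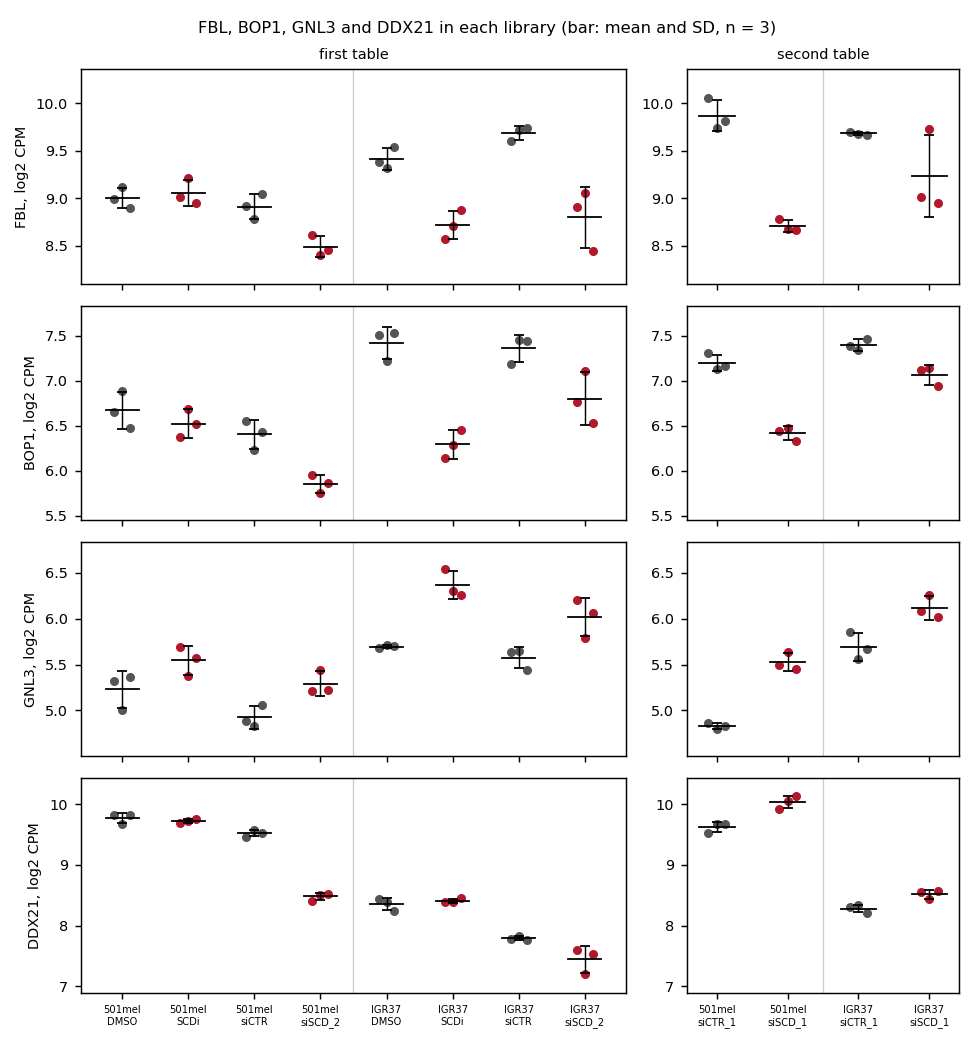
Log2 normalised expression of FBL, BOP1, GNL3 and DDX21 in every library (points) with the mean and SD (n = 3) of each group, controls in grey and treated groups in red. FBL and BOP1 lie lower and GNL3 higher in most treated groups, while DDX21 in 501mel lies higher with siSCD_1 and lower with siSCD_2.

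The rest of the pathway was read from lists of genes outside the 40, and each share is set beside that of the equally high genes given above for the 40. Of 39 further genes of the small subunit processome and 40S maturation, 17 (43.6%) fell and 1 rose with SCDi in IGR37 (median -0.28), where 34.5% of the equally high genes fell. With siSCD_1, 14 (35.9%) fell and 5 rose in 501mel, close to the 31.0% of equally high genes, and 16 (41.0%) fell and 2 rose in IGR37, against 26.5%. With siSCD_2, 15 (38.5%) fell and 2 rose in 501mel, against 25.7%, but 6 (15.4%) fell and 8 rose in IGR37, against 27.0% lower. TSR1, a 40S assembly factor, fell by 0.89 with SCDi in IGR37. HEATR1, the processome protein also known as UTP10, went the other way and rose by 0.95 there, by 1.10 with siSCD_1 in 501mel and by 1.15 with siSCD_2 in 501mel.

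Of 39 further 60S genes, 14 (35.9%) fell and 1 rose with SCDi in IGR37, close to the share of equally high genes; NIP7 fell by 1.14 and RSL24D1 rose by 1.05. The share of this list that fell was also close to that of equally high genes with siSCD_1 (28.2% in 501mel, 30.8% in IGR37) and with siSCD_2 in 501mel (25.6%), and with siSCD_2 in IGR37 6 (15.4%) fell and 9 rose.

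Of 10 further snoRNP assembly genes, 4 fell and 1 rose with SCDi in IGR37, near the 34.5% of equally high genes that fell. The gene of the box H/ACA protein NOP10 fell by 0.96. With siSCD_2, 5 fell in IGR37, against 27.0%, and 6 in 501mel, against 25.7%. Among them was SHQ1, the chaperone of DKC1, by 1.13 in IGR37 and 1.27 in 501mel. The 11 other genes of RNA polymerase I were mixed, with 2 falls and 2 rises (18.2% each) with SCDi in IGR37. Of the equally high genes 34.5% fell and 23.5% rose. The subunit gene CD3EAP fell by 1.51 there and TAF1C rose by 0.87. In 501mel with siSCD_1, 4 of these 11 (36.4%) rose and none fell, where 24.2% of the equally high genes rose. The rises included TAF1D by 1.34 and the initiation factor RRN3 by 0.92. Of 15 genes of the RNA exosome and ribosomal RNA trimming, 6 fell and 3 rose with SCDi in IGR37, near the 34.5% of equally high genes that fell. With siSCD_1, 8 (53.3%) fell and 0 rose in IGR37, against 26.5%, and 5 (33.3%) fell and 2 rose in 501mel, near 31.0%. With siSCD_2, 4 (26.7%) fell and 1 rose in 501mel, near 25.7%, and 3 fell and 4 rose in IGR37. RNA polymerase III makes 5S ribosomal RNA and tRNA. Of its 21 genes, 8 (38.1%) fell and 3 rose with SCDi in IGR37, also near 34.5%, with POLR3G lower by 1.18.

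MYC acts within a network of proteins that share MAX or MLX, in which MXD and MNT proteins compete with it and repress. Of 13 network genes measured, 3 (23.1%) rose and 2 fell with SCDi in IGR37, where 20.9% of all genes and 23.5% of the equally high genes rose, so the count is near the background; MXD1 rose by 1.45 ± 0.24 (adjusted p = 1.64e-05). With siSCD_2 in 501mel 3 (23.1%) rose and 1 fell, near the 18.3% of all genes and 24.4% of equally high genes that rose, and MXD4 rose by 2.52 (adjusted p = 1.02e-09). With siSCD_1, 4 (30.8%) rose and 1 fell in 501mel, against 24.2% of equally high genes, and MXI1 rose by 1.29 and MAX by 0.54. In IGR37 6 (46.2%) rose and 2 fell with siSCD_1, against 21.1%, and MXI1 rose by 1.02. With siSCD_2 in IGR37 5 (38.5%) rose and 3 fell, against 31.7%, and FBXW7, a ubiquitin ligase adaptor that targets MYC protein for breakdown, rose by 1.56 (adjusted p = 3.63e-10).

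Of 21 measured genes outside ribosome biogenesis that MYC is known to activate, none passed with SCDi in 501mel, and no gene of any of the lists outside the 40 did. This list, like the 40, was chosen with earlier results of these data known, so its shares are no independent test. With SCDi in IGR37, 18 of the 21 (85.7%) fell and 1 rose (median -0.61), against 34.5% lower of the equally high genes, and the mitochondrial chaperone gene HSPE1 fell by 1.18 and PHB by 0.94. With siSCD_1, 14 (66.7%) fell in 501mel (median -0.39), against 31.0%, with NME1 lower by 1.28, and 12 (57.1%) fell in IGR37 (median -0.38), against 26.5%. With siSCD_2, 16 (76.2%) fell in 501mel (median -0.44), against 25.7%, and 15 (71.4%) in IGR37 (median -0.33), against 27.0%. IMPDH1, an enzyme of guanine nucleotide synthesis, stood at -3.15 ± 0.14 and at -2.45 with siSCD_2. With siSCD_1 no gene of this list, IMPDH1 included, stood below -1.28 in 501mel or -0.99 in IGR37. None of the 21 rose with either siRNA, and in 501mel with siSCD_1 their falls stood beside the rise of MYC mRNA.

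The lines differed before any treatment. With DMSO, 24 of the 40 were lower and 6 higher in IGR37 than in 501mel, where 60.8% of all genes tested passed, 29.7% lower and 31.1% higher in IGR37. LYAR, a nucleolar factor of 60S maturation, was at 4.29, 4.54 and 4.36 in IGR37 and at 6.08, 5.94 and 6.0 in 501mel, a difference of -1.61. RRP9 was higher in IGR37, by 1.08 ± 0.14 (adjusted p = 5.13e-07), as was BOP1, by 0.75. With siCTR_1, measured in the other table, 27 were lower and 5 higher, where 60.4% of all genes passed, 29.2% lower and 31.1% higher, and LYAR, at 4.34, 4.37 and 4.67 against 6.09, 6.22 and 6.15, again showed the largest difference, at -1.69. MYC was higher in IGR37 with siCTR_1, by 0.96 ± 0.18 (adjusted p = 0.000308), as all IGR37 libraries lay above all 501mel libraries, and with DMSO it differed by 0.25 (adjusted p = 0.308).

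The 2 kinds of control also differed. Between siCTR and DMSO, 5 of the 40 were lower with siCTR in 501mel and none higher, where 11.3% of all genes tested passed, 6.57% lower and 4.74% higher. In IGR37 10 were lower with siCTR and none higher, where 15.5% of all genes passed, 8.99% lower and 6.46% higher. NCL in 501mel was at 10.02, 10.02 and 10.03 with siCTR and at 10.47, 10.49 and 10.45 with DMSO, lower by 0.44 (adjusted p = 3.11e-05). In IGR37 the largest of these differences were those of RRS1 and of RRP12, at -0.78 and -0.68, and DDX21 was lower by 0.56 (adjusted p = 3.54e-05). MYC was lower with siCTR in 501mel by 0.63, with all 3 libraries below DMSO, and did not pass (adjusted p = 0.0558); in IGR37 it differed by 0.25 (adjusted p = 0.488). Single libraries weighed on the counts: leaving out any 1 library left 1 to 5 genes in 501mel and 5 to 9 in IGR37.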

How the data were processed

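RNA from 36 libraries (QuantSeq Forward, which reads the 3′ end of polyadenylated RNA) was sequenced; STAR, edgeR and hg38 are named in the submitters' processing notes, without versions. The authors deposited 2 tables of log2 normalised expression, per the file headers and values, normalised separately and with 66 and 60 spike-in entries, which were kept out of the tests. Column names gave each library's group; 1 siSCD_2 library of IGR37 could be tied to its group but not to its replicate number. Values were fitted with limma 3.58.1 in R 4.3.3 (1 coefficient per group, all libraries of a table, variance trend, two-sided), with Benjamini-Hochberg adjustment over all genes of the table and a threshold of 0.05. No gene of the tables was filtered out. Read numbers were recovered from the spacing of low values and used to describe depth only, and counting error is all that they cover. On simulated data with 3 libraries a group, changes of log2 1 were recovered in 86% of genes (SCDi against DMSO in 501mel) and 76% (siSCD_1 against siCTR_1 in 501mel), and changes of log2 0.5 in 38% and 31%.

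The 40 genes and the lists were chosen with earlier results of these data known. Library values were given for MYC in every comparison, for the 3 largest rises and 3 largest falls past the threshold, and for genes past it in opposite directions; of each further list at most the 2 genes with the smallest adjusted p were to be named per comparison. Same-numbered replicates did not deviate together: 1 of 17 pairs had a correlation over 0.1 (range -0.124 to 0.156), so the fit had no replicate block. Gene positions are those of GENCODE 29, and 9 of the 40 genes have named pseudogenes there. Alternatives tried were spike-in scaling, quantile normalisation, median centring, a pseudocount of 1, a stricter filter (log2 2 in 3 libraries), no variance trend, only the groups compared, a replicate block and leaving out each library.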

Additional observations from a re-analysis of the deposited data

Results flagged for a closer look

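Each of these results is a difference between the lines in the response to the same treatment (IGR37 minus 501mel, on the log2 scale), past the threshold in limma's test of the difference itself. With the inhibitor, 19 of the 40 genes (47.5%) differed, all lower in IGR37. Of all genes 27.6% differed, and of the equally high genes 39.5% did, 23.9% lower and 15.7% higher in IGR37. The largest differences were those of PPAN (-1.04), BOP1 (-0.98) and NOP16 (-0.94). With siSCD_1, 10 of the 40 differed (25%), near the 20.3% of all genes: MYC stood at -1.88, UTP20 at -0.73 and WDR12 at -0.67, and NPM1 at 0.49, PES1 at 0.63 and FBL at 0.72. With siSCD_2, 12 of the 40 differed (30%), where 21.1% of all genes did: FBL stood at -0.46, DDX21 at 0.69, DDX10 at 0.71 and RRS1 at 0.93. For the siRNAs the share of equally high genes is not given, and with the inhibitor it was above that of all genes. RRS1 and DDX21 were also lower with siCTR than with DMSO in IGR37. The FBL difference with siSCD_2 (adjusted p = 0.0496) was lost without any 1 of 8 of the 12 libraries, and that with siSCD_1 without any 1 of 3.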

How the results depend on the processing

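Counts below are genes of the 40 past the threshold. Scaling on the spike-ins gave 12 in place of 19 with siSCD_1 in IGR37, 38 in place of 22 with siSCD_2 in 501mel, 23 in place of 15 with siSCD_2 in IGR37, 5 in place of 10 for the difference between lines with siSCD_1, 1 in place of 12 for that with siSCD_2, and 0 in place of 5 and 3 in place of 10 between siCTR and DMSO in 501mel and IGR37. Under it POLR1C (-0.16, adjusted p = 0.591) and GNL3 (-0.26, adjusted p = 0.341) with siSCD_2 in 501mel, and NOP58 (-0.0054, adjusted p = 0.986) and GNL3 (-0.0332, adjusted p = 0.919) with siSCD_2 in IGR37, had the opposite sign. WDR43 with siSCD_2 in IGR37, whose rise of 0.28 was smaller than the shift of -0.47, also had the opposite sign. Fitting only the groups compared, which leaves fewer libraries for the spread, gave 8 with siSCD_2 in IGR37, 5 for the difference between lines with siSCD_2 and 1 between siCTR and DMSO in 501mel, where no variance trend and quantile normalisation each gave 2. For the other changes the cause was not tested. Leaving out each library in turn gave 0 to 0 with SCDi in 501mel and 26 to 28 in IGR37, 15 to 18 and 12 to 18 with siSCD_1, 17 to 22 and 12 to 21 with siSCD_2 (501mel, then IGR37), 13 to 18, 6 to 14 and 8 to 18 for the differences between lines with SCDi, siSCD_1 and siSCD_2, 30 to 31 and 29 to 32 between the lines with DMSO and siCTR_1, and 1 to 5 and 5 to 9 between siCTR and DMSO. With a replicate block the 6 treated comparisons gave 0 and 28 (SCDi), 18 and 17 (siSCD_1) and 23 and 11 (siSCD_2), so the block moved no count by over 1.5 times; PPAN and NOP58 with siSCD_2 in IGR37 no longer passed (adjusted p = 0.0969 and 0.329). Called under every alternative were 22 of 27 falls and 1 of 1 rise with SCDi in IGR37, 9 of 14 and 4 of 4 with siSCD_1 in 501mel, 10 of 17 and 1 of 2 in IGR37, 13 of 20 and 0 of 2 with siSCD_2 in 501mel, and 5 of 10 and 1 of 5 in IGR37. Of the differences between lines, 13 of 19 lower values held with SCDi, 1 of 6 lower and 1 of 4 higher with siSCD_1, and 0 of 1 lower and 1 of 11 higher with siSCD_2. With 3 libraries a group at these depths, changes well under log2 1 can be missed, so a gene that did not pass may still have changed.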
